A study of Mus musculus with 6 samples.

Results

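Mouse eosinophils given interleukin 4 (IL-4) for 4 h were compared with untreated eosinophils of the same 4 h. All genes with a level of at least 1 FPKM (sequenced fragments per unit of transcript length and of library size) in either library were taken, which gave 10712 genes of the 22548 gene symbols in the table. A further 131 small RNA genes at that level were kept apart, and 11705 genes were under 1 FPKM in both libraries. Change is given as the log2 of (IL-4 FPKM + 1) over (untreated FPKM + 1), which shrinks the differences of weakly expressed genes. A gene is called higher or lower where this log2 change was at least 1 in size.

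Both groups held cells from wild-type BALB/c mice of 4 to 8 weeks. Low-density bone marrow cells spent 14 days in culture. They received FLT3 ligand and stem cell factor (100 ng/ml each) during the first 4 days and IL-5 (10 ng/ml) after that, so that untreated and IL-4 cells alike had been under IL-5. The IL-4 group then received IL-4 at 10 ng/ml for 4 h, and the untreated group received no added cytokine. The series also holds IL-4 and untreated libraries of 1 h and IL-33 libraries of both times, and each of its 6 groups had 1 library. No difference therefore has a replicate check, and no p-values are given. Whether the cells of a library came from 1 mouse or from several is not given in the sources used here.

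IL-4 binds a receptor made of the IL-4 receptor alpha chain (Il4ra) and the common gamma chain (Il2rg), whose JAK kinases phosphorylate STAT6. STAT6 then enters the nucleus and binds palindromic sites of the form TTCNNNNGAA, in which N is any base. In mouse macrophages this pathway gives the state called alternative activation, marked by arginase 1, the mannose receptor and the secreted protein RELM-alpha. Eosinophils both make IL-4 and carry its receptor, and they are a main granulocyte of allergic tissue and worm infection.

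The libraries carried the transcripts that define eosinophils. Prg2, the major basic protein of the granules, was the most abundant gene at 52228 FPKM with IL-4 and 47233 FPKM without it (log2 change 0.15). Of the 12 eosinophil markers compared, none reached a log2 change of 0.25 in size. Only 5.72% of all genes were at 0.25 or more and 2.9% at -0.25 or less, so this does not set the markers apart. The summed level of the 12 markers was 74814 FPKM with IL-4 and 67772 FPKM in untreated cells. The 12 genes of highest mean level held, beside Prg2, the eosinophil ribonuclease genes Ear1, Ear2, Ear7 and Ear12, which are close copies that can share reads. The others were the ferritin genes Fth1 and Ftl1, Tmsb4x, Ctsd, Actb, Ccl6 and S100a11, and log2 changes of the 12 ran from -0.07 for Ctsd to 0.24 for Ccl6. Markers of other blood cells were present in both libraries as well. The 14 neutrophil markers summed to 8720 FPKM with IL-4 and 8762 FPKM without it, and the 16 markers of monocytes, macrophages and dendritic cells to 1665 FPKM with IL-4 and 1667 FPKM without. The 9 mast cell and basophil markers summed to 455 FPKM with IL-4 and 444 FPKM without, the 5 lymphoid markers to 23.9 FPKM with IL-4 and 26.7 FPKM without, and the 5 erythroid and megakaryocyte markers to 309.9 FPKM with IL-4 and 316.6 FPKM without. Among the defining markers listed at 0 in both libraries were the mast cell protease gene Mcpt4 and the erythroid gene Car1. In a mixed culture, a change in the number of cells of 1 type and a change of RNA per cell cannot be told apart, and this holds for every gene named here.

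The STAT6 form of the site lay in the 250 bases before the annotated start of several genes described below. The promoter windows of 4 of them are shown as examples of windows with the site, and most genes called higher had no such site in their windows. They are RefSeq windows of build GRCm38.p6, 300 bases long, from 250 bases before to 50 bases after the start, written 5′ to 3′ on the gene's strand, and the capitals mark TTCNNNNGAA. RefSeq follows the strain C57BL/6J, whereas the cells came from BALB/c mice.
Retnla, chr16:48842359-48842658, plus strand: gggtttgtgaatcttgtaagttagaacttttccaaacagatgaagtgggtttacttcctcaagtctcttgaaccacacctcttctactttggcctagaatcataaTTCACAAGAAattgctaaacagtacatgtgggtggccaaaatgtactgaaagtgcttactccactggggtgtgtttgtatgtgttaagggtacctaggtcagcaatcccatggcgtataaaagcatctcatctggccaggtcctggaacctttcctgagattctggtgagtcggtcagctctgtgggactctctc
Tmem26, chr10:68723496-68723795, plus strand: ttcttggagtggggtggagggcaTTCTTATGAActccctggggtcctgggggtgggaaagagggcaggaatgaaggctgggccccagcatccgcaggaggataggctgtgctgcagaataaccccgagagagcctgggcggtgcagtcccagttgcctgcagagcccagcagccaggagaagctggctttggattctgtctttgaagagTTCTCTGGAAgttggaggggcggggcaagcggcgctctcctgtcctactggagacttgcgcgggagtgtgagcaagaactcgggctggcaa
Tfec, chr6:16898392-16898691, minus strand: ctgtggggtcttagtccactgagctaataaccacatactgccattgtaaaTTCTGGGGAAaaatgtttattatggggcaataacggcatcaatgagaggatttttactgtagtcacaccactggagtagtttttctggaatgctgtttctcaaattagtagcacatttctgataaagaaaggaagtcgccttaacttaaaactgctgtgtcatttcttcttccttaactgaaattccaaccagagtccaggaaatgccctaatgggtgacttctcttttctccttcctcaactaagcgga
Clec7a, chr6:129472730-129473029, minus strand: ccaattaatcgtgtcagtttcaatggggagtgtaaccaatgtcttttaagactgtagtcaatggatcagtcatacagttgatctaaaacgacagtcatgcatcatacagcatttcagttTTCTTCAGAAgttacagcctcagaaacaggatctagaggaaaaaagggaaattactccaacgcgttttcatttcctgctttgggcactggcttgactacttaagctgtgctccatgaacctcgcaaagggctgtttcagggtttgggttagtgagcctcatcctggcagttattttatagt

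The site of Retnla, which encodes RELM-alpha, was TTCACAAGAA and began 145 bases before the start. Tmem26 had 2 sites, TTCTTATGAA at position -227 and TTCTCTGGAA at -41. Tfec, listed in the authors' table under its older name Tcfec, had TTCTGGGGAA at -200, and Clec7a had TTCTTCAGAA at -131. Lair1, also described below, held TTCTCCTGAA at -81. The promoter table held 24 of the 32 genes called higher, and 3 of these 24 (12.5%) carried the site, against 8.01% of all 27025 genes in the table. So small a count does not set them apart from the rest. Socs1, Mrc1, Mgl2, Egr2 and Irf4 were among those without the site, and Clec7a and Lair1 were not called higher. The related form TTCNNNGAA, which other STAT proteins prefer, was found in 5 of the 24, against 9.55% of all genes. These 5 were Tgtp1, Dab2 (TTCTTAGAA at -72), Gimap3, Serpina3g and Batf3. Both forms read the same on either strand, overlaps between them were not removed, and a match describes the letters of the window and not a bound site.

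With IL-4 at 4 h, 32 of 10712 genes were higher (0.299%) and 1 was lower (0.00934%). The median log2 change of all genes was 0.02, and 56.7% of genes had a value above 0. The genes with the largest changes included arginase 1, RELM-alpha, 2 monocyte chemokines, the signalling inhibitor Socs1, transcription factors and endocytic receptors. Genes called higher were mostly of low or middle level, since 18 had a mean of the 2 libraries under 5 FPKM, 12 of 5 to under 20 FPKM and only Ccl7 and Retnla, 0.0499% of the genes at that level, of at least 20 FPKM. At the level of at least 20 FPKM, the 1% and 99% points of the log2 changes were -0.21 and 0.27.

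**Figure D1:**
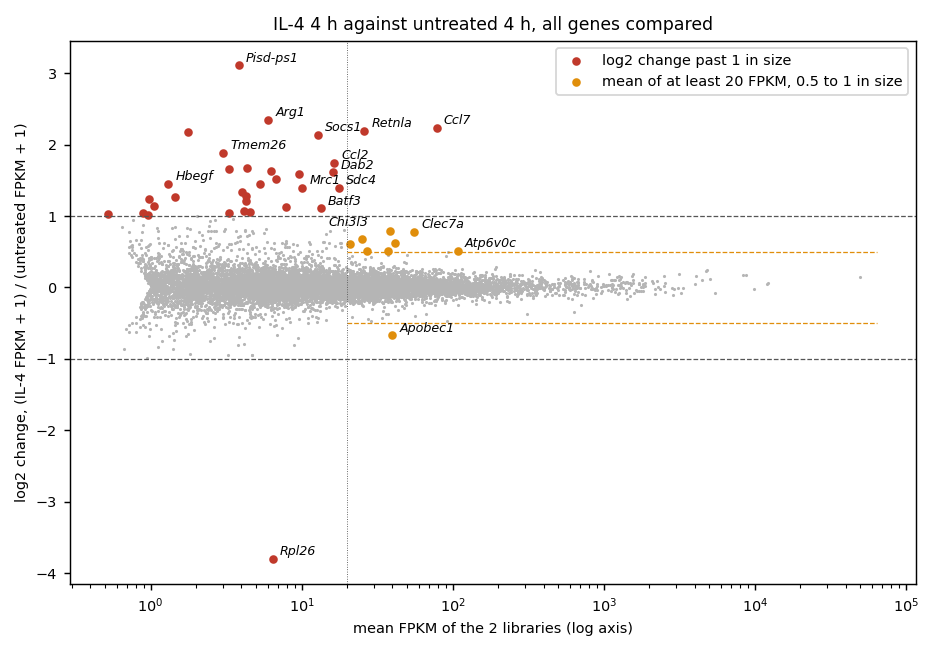
Log2 change of (IL-4 FPKM + 1) over (untreated FPKM + 1) at 4 h against the mean FPKM of the 2 libraries on a log axis, with 1 point for each of the 10712 genes. The 32 higher genes lie mostly left of the dotted line at 20 FPKM, where the cloud is wider, and Rpl26 is the only point below -1.

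Reads behind these values were estimated from the steps between low FPKM values. They implied about 19300000 reads for the IL-4 library and 15500000 for the untreated one, a ratio of 1.24. For genes with 1 transcript of known length, each value was turned back into whole reads and the FPKM ratio was given a 95% interval, which covers counting error only and compares these 2 libraries, not the conditions. Among 3038 well expressed genes, 32.3% had an interval that left out a ratio of 1, so an interval that leaves out 1 does not set a gene apart from the rest.

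Arg1, which splits arginine into ornithine and urea, stood at 10.8 FPKM with IL-4 and at 1.31 FPKM without it (log2 change 2.35). The estimate was 265 reads with IL-4 and 26 in untreated cells, a ratio of 8.20 with a counting interval of 5.48 to 12.8. Slc7a2, a carrier that brings arginine into the cell, stood at 9.95 FPKM with IL-4 and 2.53 FPKM without (1.63). Transcripts of the carrier and of the enzyme were thus both higher in the IL-4 library. Among the enzymes around arginine, Gatm, which begins creatine synthesis from arginine, stood at 21.97 FPKM with IL-4 and 14.6 FPKM without (0.56), and Srm, which makes spermidine, at 10.8 FPKM with IL-4 and 6.74 FPKM without (0.61). Ckb, a creatine kinase, had the opposite sign at 23.3 FPKM with IL-4 and 31.98 FPKM without (-0.44). Arg2, the mitochondrial arginase, was at 106 FPKM with IL-4 and 102 FPKM in untreated cells (0.05), a level far above that of Arg1. Of the 20 genes compared from the list on arginine and polyamines, 2 were higher and none lower, where 0.299% and 0.00934% of all genes were. The median log2 change of the list was 0.09 beside 0.02 for all genes.

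Retnla, whose promoter is shown above, stood at 43.1 FPKM with IL-4 and 8.64 FPKM without it (log2 change 2.20). The 333 reads estimated with IL-4 and 54 without gave a ratio of 4.996 with an interval of 3.71 to 6.75. At 1 h the same gene had been at 12.2 FPKM with IL-4 and 10.7 FPKM without (0.17), so its difference was seen at 4 h. Chi3l3, the chitinase-like protein Ym1 that is known beside RELM-alpha in alternatively activated macrophages, was at 49.3 FPKM with IL-4 and 28.1 FPKM without (0.79). Its near copy Chi3l4 was at 4.73 FPKM with IL-4 and 2.95 FPKM without (0.54), and reads of the pair may be split between them. Mrc1, the mannose receptor, stood at 15.1 FPKM with IL-4 and 5.12 FPKM without (1.39), with an interval of the ratio from 2.64 to 3.29. Mrc1 was also on the list of monocyte, macrophage and dendritic cell markers, where it was the only member called higher. The 16 markers of that list had a median log2 change of -0.02, with 6 above 0 and 10 below, where 56.7% of all genes were above 0. The part of such cells in the result was not tested.

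The endocytic lectins Mgl2 and Clec10a, neighbours in the genome that bind galactose-type sugars, had the same sign. Mgl2 stood at 2.45 FPKM with IL-4 and 0.434 FPKM without (1.27) and Clec10a at 2.95 FPKM with IL-4 and 1.49 FPKM without (0.67). Clec7a (dectin-1, the receptor for fungal beta-glucan) was the most abundant of this group, at 70.9 FPKM with IL-4 and 40.9 FPKM without (0.78). Dab2, an adaptor that links receptors to clathrin, stood at 25.0 FPKM with IL-4 and 7.51 FPKM without (1.61). Sdc4, a heparan sulfate proteoglycan of the cell surface, was at 26.1 FPKM with IL-4 and 9.27 FPKM without (1.398) and Fchsd2, which shapes membrane during endocytosis, at 6.49 FPKM with IL-4 and 2.08 FPKM without (1.28). The list of lectin, scavenger and inhibitory receptors was mixed, with 3 of 37 genes higher, none lower and a median of 0.08. The 3 included the adaptor Dab2, which is not itself a receptor. Of all genes, 0.299% were higher and 0.00934% lower. Siglece, an inhibitory receptor for sialic acid, was at 5.11 FPKM with IL-4 and 2.72 FPKM without (0.72). Of the 37 genes, 24 were above 0, which is near the 56.7% of all genes. Among the 13 below 0, the scavenger receptor gene Stab1 was at 2.50 FPKM with IL-4 and 5.11 FPKM without (-0.80), Msr1, a receptor for altered lipoproteins, at 10.5 FPKM with IL-4 and 15.0 FPKM without (-0.48) and Trem2, a lipid-binding receptor of macrophages, at 49.7 FPKM with IL-4 and 57.8 FPKM without (-0.21).

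The monocyte chemokines Ccl7 and Ccl2 lie next to each other on chromosome 11 (mm9, Ccl2 at 81849079 to 81850954 and Ccl7 at 81859214 to 81861025). Ccl7 stood at 130.1 FPKM with IL-4 and 26.9 FPKM without it (log2 change 2.23), the highest level among the 32 genes called higher. Its ratio was 4.84 with an interval of 4.24 to 5.56. Ccl2 was at 25.9 FPKM with IL-4 and 7.04 FPKM without (1.74). Both were already higher at 1 h, where Ccl7 had a log2 change of 1.53 and Ccl2 of 1.46. Ccl17 and Ccl22, ligands of the type 2 T cell receptor CCR4 and also neighbours in the genome, were low, at 1.33 FPKM with IL-4 and 0.207 FPKM without for Ccl17 (0.95) and 4.79 FPKM with IL-4 and 2.72 FPKM without for Ccl22 (0.64). Eotaxin 1 (Ccl11) was listed at 0 in both libraries, and eotaxin 2 (Ccl24) stood at 0.905 FPKM with IL-4 and 0.414 FPKM without. Below 0 were Cxcl10, known from interferon responses, at 0.521 FPKM with IL-4 and 1.72 FPKM without (-0.84), and Cxcl14 at 0.701 FPKM with IL-4 and 2.10 FPKM without (-0.86). Over the 19 chemokines compared, 2 were higher and none lower, where 0.299% and 0.00934% of all genes were, and the median was 0.08. Ccl6, by far the most abundant of them, stood at 5196 FPKM with IL-4 and 4403 FPKM without (0.24).

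Socs1, which inhibits JAK kinases and so limits IL-4 signalling, stood at 21.5 FPKM with IL-4 and 4.11 FPKM without it (log2 change 2.14). It had been at 18.4 FPKM with IL-4 and 2.80 FPKM without at 1 h (2.35). Cish, a SOCS family member known as a STAT5 target, stood at 18.7 FPKM with IL-4 and 11.8 FPKM without at 4 h (0.62), after 25.7 FPKM with IL-4 and 10.0 FPKM without at 1 h (1.28). Pim2, a kinase of cell survival, was at 11.2 FPKM with IL-4 and 4.58 FPKM without (1.13), and its relative Pim1 at 62.9 FPKM with IL-4 and 62.5 FPKM without (0.01). Socs3 was at 1.80 FPKM with IL-4 and 1.45 FPKM without (0.19). Of the 11 genes of this list, 2 were higher and none lower, where 0.299% and 0.00934% of all genes were, with a median of 0.19. The receptor and its signalling chain differed less. Il4ra stood at 9.52 FPKM with IL-4 and 8.82 FPKM without (0.10), Il2rg at 43.6 FPKM with IL-4 and 41.0 FPKM without (0.09) and Stat6 at 117 FPKM with IL-4 and 119 FPKM without (-0.02). Stat4 was the furthest of 23 genes in that list, at 3.59 FPKM with IL-4 and 1.66 FPKM without (0.78). Ptpn2, a phosphatase that removes phosphate from JAK and STAT proteins, was at 32.8 FPKM with IL-4 and 26.9 FPKM without (0.28).

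Transcription factor genes made up 5 of the 32. Egr2, a zinc finger factor known from IL-4-treated macrophages, stood at 10.5 FPKM with IL-4 and 3.00 FPKM without it (log2 change 1.52). At 1 h it had been at 23.0 FPKM with IL-4 and 13.1 FPKM without, so both 1 h libraries lay above both 4 h libraries. Tfec, a member of the MITF family of lysosomal and macrophage factors, was at 5.51 FPKM with IL-4 and 1.06 FPKM without (1.66). Its relative Mitf stood at 6.05 FPKM with IL-4 and 5.03 FPKM without (0.23). The list that joins this factor family with lysosomal genes had 1 of 28 genes higher, Tfec itself, where 0.299% of all genes were. None was lower, and the median was -0.01. Batf3, an AP-1 family factor of dendritic cells, stood at 18.6 FPKM with IL-4 and 8.09 FPKM without (1.11), and Irf4, its partner at many sites, at 1.63 FPKM with IL-4 and 0.301 FPKM without (1.01). Myc was at 6.001 FPKM with IL-4 and 2.34 FPKM without (1.07). Of 10 genes of the MYC, MAX and MXD network it was the only one called higher, where 0.299% of all genes were. Klf4 stood at 2.91 FPKM with IL-4 and 1.29 FPKM without (0.77) and Pparg, a lipid receptor of alternative activation, at 5.25 FPKM with IL-4 and 3.46 FPKM without (0.49). Id3 and Bhlhe41 lay on the other side, with log2 changes of -0.51 and -0.65.

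Over the whole list of alternative activation and STAT6 response genes, 14 of 46 genes were higher and none lower. Of all genes, 0.299% were higher and 0.00934% lower. At a log2 change of at least 0.5 in size there were 24 above and 1 below, where 1.61% and 0.523% of all genes passed. The median log2 change of the list was 0.57, beside 0.02 over all genes. The list was written with earlier results of these data known, so its count describes the genes and does not stand as separate evidence. Members near 0 included Alox15, which oxidises arachidonic acid and is abundant in eosinophils, at 995 FPKM with IL-4 and 977 FPKM without (0.03). Tgm2 was at 39.0 FPKM with IL-4 and 35.4 FPKM without (0.14), Il1rn at 242 FPKM with IL-4 and 225 FPKM without (0.10) and Pdcd1lg2, the gene of PD-L2, at 7.46 FPKM with IL-4 and 6.81 FPKM without (0.12).

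**Figure D2:**
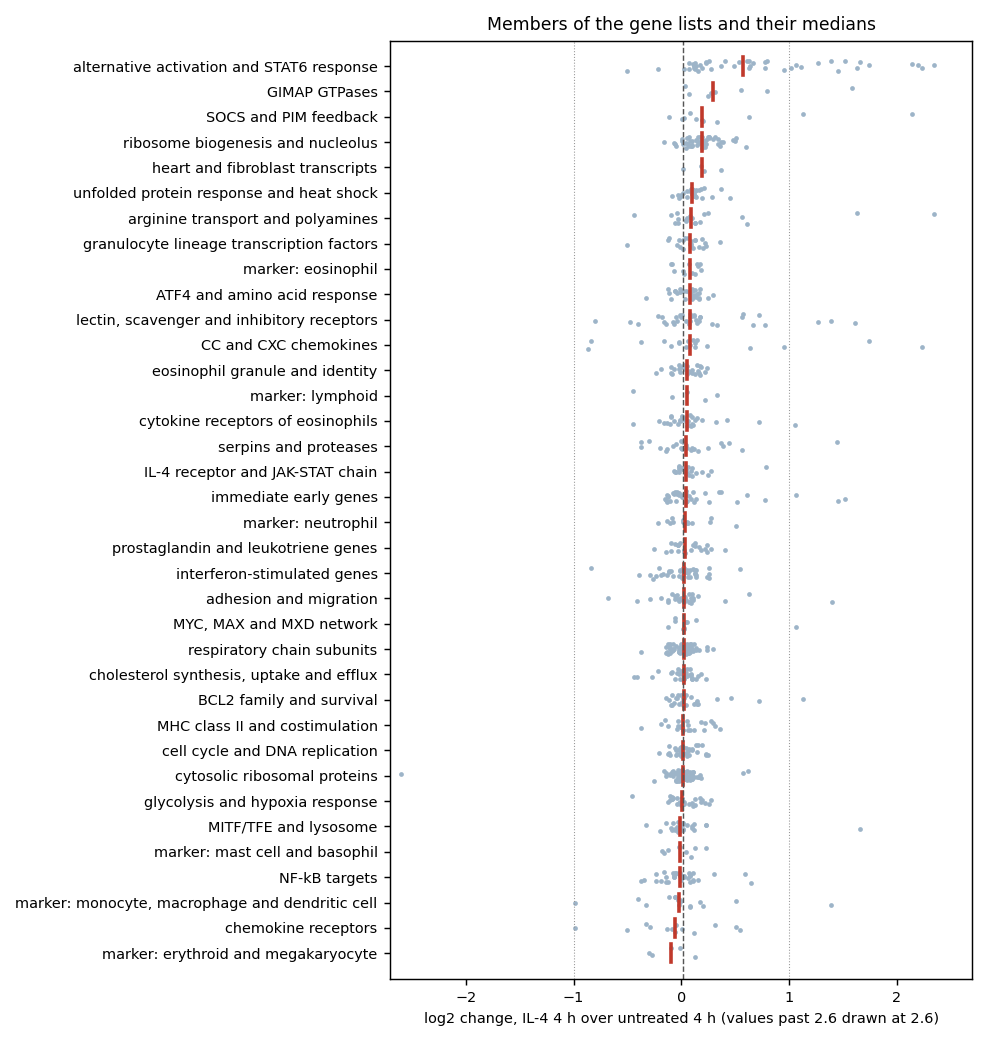
Log2 change at 4 h of each compared member of the 36 gene lists, with 1 point per gene, a red bar at each list's median and the dashed line at the median of all genes (0.02). The list of alternative activation and STAT6 response genes has the highest median (0.57), and most other medians lie near the dashed line.

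The remaining genes called higher had varied roles. Tmem26, a membrane protein, stood at 5.34 FPKM with IL-4 and 0.715 FPKM without it (log2 change 1.89), with 500 estimated reads with IL-4 and 54 without and an interval of the ratio from 5.62 to 10.1. Hbegf, a growth factor of the EGF family, was at 2.38 FPKM with IL-4 and 0.236 FPKM without (1.45), and Pgf, a growth factor related to VEGF, at 1.55 FPKM with IL-4 and 0.235 FPKM without (1.05). Il6st, the gp130 chain shared by receptors of the IL-6 family, stood at 6.52 FPKM with IL-4 and 2.63 FPKM without (1.05). Lipg, endothelial lipase, was at 6.18 FPKM with IL-4 and 1.84 FPKM without (1.34), the granule protease gene Gzma at 6.36 FPKM with IL-4 and 2.19 FPKM without (1.21), and Ppm1j, a protein phosphatase, at 1.77 FPKM with IL-4 and 0.169 FPKM without (1.25). For Ppm1j, 52 reads were estimated with IL-4 and only 4 in untreated cells, and its interval ran from 3.85 to 39.8. The genes of symbols with no assigned role, 1810021B22Rik and 2010204K13Rik, had log2 changes of 1.14 and 1.03 at levels under 2 FPKM.

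Gimap3, a GTPase of a family known from lymphocyte survival, stood at 15.0 FPKM with IL-4 and 4.33 FPKM without it (log2 change 1.58). It had been at 3.38 FPKM with IL-4 and 3.54 FPKM without at 1 h. All 8 members of the family were above 0, with 1 called higher, none lower and a median of 0.29, where 56.7% of all genes were above 0 and 0.299% were called higher. Gimap5 was at 1.69 FPKM with IL-4 and 0.554 FPKM without (0.79) and Gimap4 at 7.59 FPKM with IL-4 and 4.87 FPKM without (0.55), while Gimap9 was at 9.68 FPKM with IL-4 and 9.42 FPKM without (0.04). The family lies in a cluster on chromosome 6, and the 5 lymphoid markers compared had a median log2 change of 0.05. Of these, Ncr1 (0.33), Cd79a (0.22) and Klrb1c (0.05) lay above 0, and Cd3d (-0.09) and Il7r (-0.44) below. The part of lymphoid cells in this result was not tested.

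Some of the 32 calls rest on loci where reads can be shared. Pisd-ps1, a pseudogene that overlaps Pisd-ps3 and Sfi1, was at 7.65 FPKM with IL-4 and 0.00262 FPKM without, but at 37.3 FPKM with IL-4 and 19.9965 FPKM without at 1 h. Tgtp1, an interferon-induced GTPase with the near-identical neighbour Tgtp2, was at 3.54 FPKM with IL-4 and 0.000209 FPKM without, and it carries the status LOWDATA in the authors' deposited table. Pet117 overlaps Csrp2bp and Serpina3g overlaps Serpina3f, and their log2 changes were 1.67 and 1.44. Klk1b11 belongs to a cluster of close kallikrein copies, of which Klk1 was at 18.4 FPKM with IL-4 and 10.6 FPKM without (0.75). The only gene called lower, the ribosomal protein gene Rpl26, had a listed value of 0 with IL-4 and stood at 12.9 FPKM in untreated cells, beside 4.87 FPKM with IL-4 and 2.37 FPKM without at 1 h. Rpl26 overlaps Gm15772, and ribosomal protein genes have many processed copies in the genome. Of 77 such genes it was the only one past a log2 change of 1 in size, and their median was 0.01. Without the genes that overlap another gene of the table, 28 were higher and 0 lower.

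**Figure D3:**
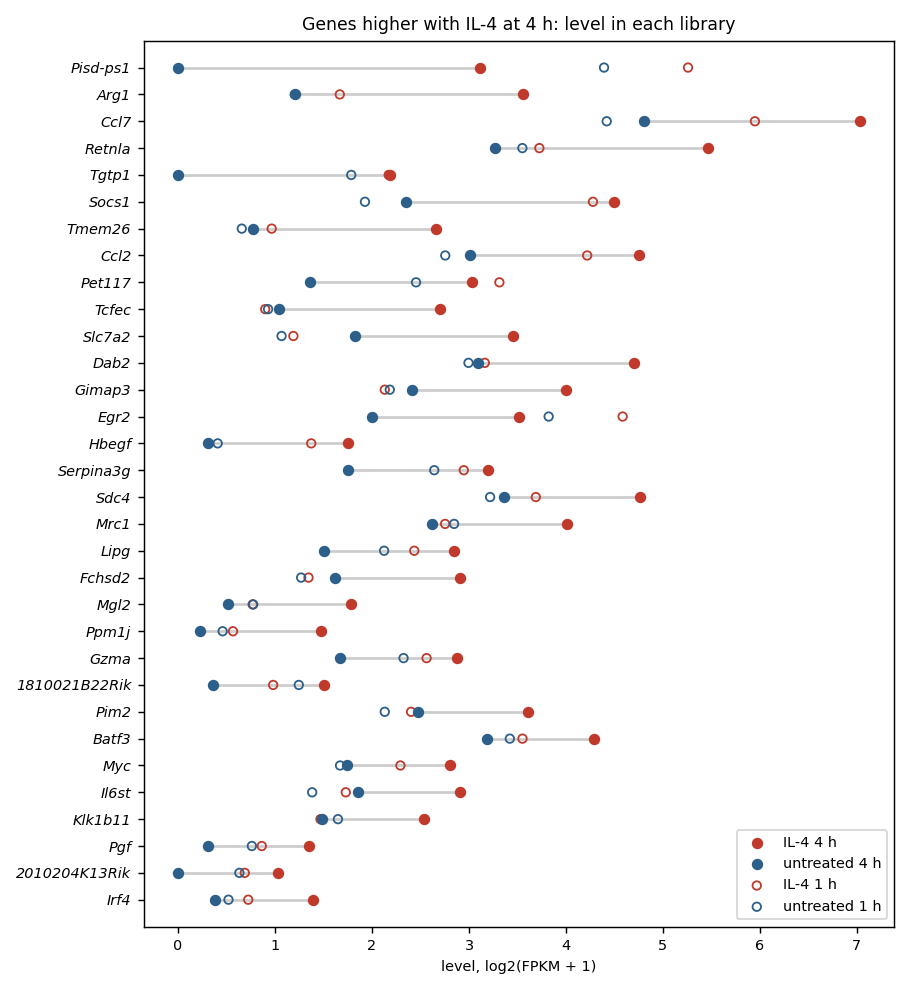
Level, as log2(FPKM + 1), of the 32 higher genes with IL-4 at 4 h (filled red) and without it at 4 h (filled blue), and in the libraries of 1 h (open circles). The filled red point lies right of the filled blue one in every row by the rule, and for Pisd-ps1 and Egr2 both open circles lie right of both filled ones.

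The genes at the edge of the rule were close in value. Just inside stood Irf4 (1.01), 2010204K13Rik (1.03), Pgf (1.05) and Klk1b11 (1.05), and just outside Npff (1.00 after rounding), Fcrls (0.96), Ccl17 (0.95) and Sestd1 (0.94). On the lower side the nearest were Cx3cr1, the fractalkine receptor of monocytes, at 0.302 FPKM with IL-4 and 1.59 FPKM without (-0.99), Pid1 at 1.91 FPKM with IL-4 and 4.61 FPKM without (-0.95), Pmp22 at 2.88 FPKM with IL-4 and 6.47 FPKM without (-0.95) and 5430435G22Rik at 2.90 FPKM with IL-4 and 6.47 FPKM without (-0.94). The counting intervals of the higher genes describe the precision of each ratio and do not support the calls, since the rule chose these genes by the same values.

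**Figure D4:**
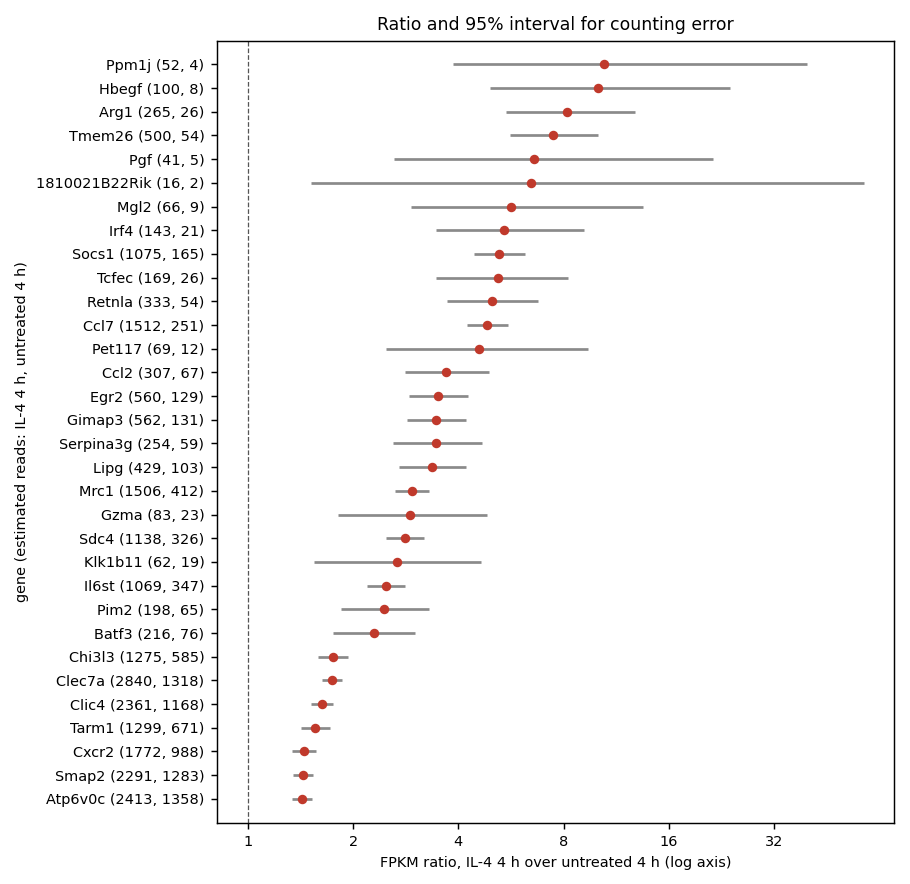
FPKM ratio of IL-4 4 h over untreated 4 h on a log axis, with its 95% interval for counting error, for the single-transcript genes among those called higher and among well expressed genes with a log2 change of 0.5 to 1. Genes without an estimated read in either one of the libraries are not drawn. Estimated reads are given beside each name with IL-4 first, and intervals run from narrow for Clec7a (1.62 to 1.85) to wide for Ppm1j (3.85 to 39.8).

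Shifts under 2-fold were followed among the 4008 well expressed genes, those with a mean of at least 20 FPKM. Those with 1 transcript of known length had a median of 2153 estimated reads with IL-4 and 1689 without. At a log2 change of at least 0.5 in size, 10 of the 4008 were above (0.25%) and 1 was below (0.025%). Apart from Ccl7 and Retnla, the 8 above were Chi3l3, Clec7a, Clic4, Tarm1, Lair1, Atp6v0c, Cxcr2 and Smap2. Clic4, a chloride channel-like protein, stood at 31.2 FPKM with IL-4 and 19.2 FPKM without (0.67). The receptor genes Tarm1 and Lair1 of the leukocyte receptor cluster on chromosome 7 were both among them. Tarm1, an activating receptor of myeloid cells, was at 50.4 FPKM with IL-4 and 32.3 FPKM without (0.62), and Lair1, an inhibitory receptor for collagen, at 25.6 FPKM with IL-4 and 16.4 FPKM without (0.61). Atp6v0c, a subunit of the proton pump of lysosomes, was the most abundant at 126.9 FPKM with IL-4 and 88.8 FPKM without (0.51), though its locus overlaps a pseudogene copy. Cxcr2, the chemokine receptor of neutrophils, stood at 32.2 FPKM with IL-4 and 22.3 FPKM without (0.51), while the other 13 neutrophil markers lay between -0.22 and 0.27. Smap2, which acts on the vesicle GTPase Arf, was at 43.8 FPKM with IL-4 and 30.5 FPKM without (0.51).

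Apobec1, a cytidine deaminase that edits RNA, was the single well expressed gene below -0.5, at 30.6 FPKM with IL-4 and 49.3 FPKM without (-0.67). With its transcript of highest mean in place of the sum the value was -0.48, which ends that call. At 1 h it had been at 30.8 FPKM with IL-4 and 29.96 FPKM without. The untreated library of 4 h was thus the high one of these 4 values, with the reservation that the tables of 1 h and 4 h were normalised separately.

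A smaller band, with log2 changes of 0.25 to 0.5 in size, was added after the data had been seen and holds 51 well expressed genes above and 19 below. At 0.25 or more, 1.52% of well expressed genes were above and 0.499% below. Bcl2l11, the cell death gene BIM, was at 43.4 FPKM with IL-4 and 31.3 FPKM without (0.46), and Bcl2, which BIM opposes, at 2.16 FPKM with IL-4 and 0.916 FPKM without (0.72). Pdia4, a folding enzyme of the endoplasmic reticulum, was at 57.7 FPKM with IL-4 and 42.0 FPKM without (0.45) and Hspd1, the mitochondrial chaperonin, at 44.5 FPKM with IL-4 and 36.3 FPKM without (0.28). The folding genes as a list had no member past 0.5 and a median of 0.10 over 30 genes, with 25 above 0, where 56.7% of all genes were. Among surface proteins, the proton-sensing receptor Gpr65 was at 23.7 FPKM with IL-4 and 17.5 FPKM without (0.42), the integrin chain Itgb3 at 29.99 FPKM with IL-4 and 22.4 FPKM without (0.40), and Cd274, the gene of PD-L1, at 35.2 FPKM with IL-4 and 29.0 FPKM without (0.27). Cyp11a1, which makes pregnenolone from cholesterol, stood at 380 FPKM with IL-4 and 319 FPKM without (0.25), with about 14085 reads with IL-4 and 9520 without. Of the 51 genes above, 4 had a log2 change of at least 0.25 at 1 h, where 0.819% of well expressed genes were. They included Rnf19b, a ubiquitin ligase, with 0.44 at 4 h and 0.61 at 1 h, and Cited2, a transcriptional coregulator, with 0.26 at 4 h and 0.85 at 1 h.

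The well expressed genes below had varied roles. Ctsl, a lysosomal protease, stood at 271 FPKM with IL-4 and 352 FPKM without (-0.37) and Gpnmb, a glycoprotein of lysosomes, at 30.5 FPKM with IL-4 and 38.7 FPKM without (-0.33). Thbs1, the matrix protein thrombospondin 1, was at 58.1 FPKM with IL-4 and 75.5 FPKM without (-0.37), after 204 FPKM with IL-4 and 217 FPKM without at 1 h. Clec4d, a C-type lectin that senses mycobacterial lipid, was at 48.6 FPKM with IL-4 and 64.4 FPKM without (-0.40), in contrast to Clec7a on the same chromosome. Rnaseh2c, a subunit of a nuclease for RNA in DNA hybrids, stood at 24.2 FPKM with IL-4 and 33.8 FPKM without (-0.47). None of the 19 genes was at or below -0.25 at 1 h, where 0.555% of well expressed genes were.

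**Figure D5:**
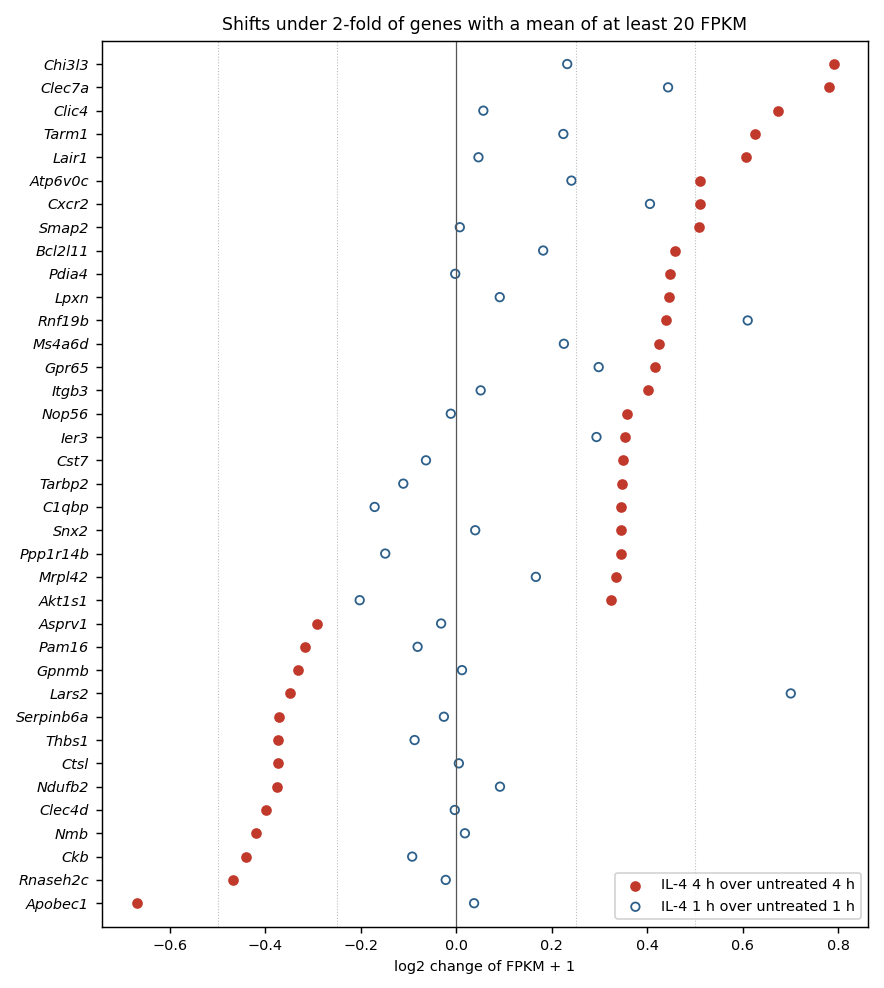
Log2 change of FPKM + 1 at 4 h (filled red) and at 1 h (open blue) for the well expressed genes with the largest shifts under 2-fold, leaving out symbols without a gene name. Smaller shifts, such as that of Cited2, are not drawn. The rows at the top run from Chi3l3 (0.79) downward, the lowest is Apobec1 (-0.67), and most open circles lie nearer to 0 than their filled partners, except for Rnf19b and Lars2.

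At a mean of 5 to under 20 FPKM, a band also added after the data had been seen, 48 of 3823 genes had a log2 change of at least 0.5 (1.26%) and 10 of -0.5 or less (0.262%). C3, the central complement component, stood at 19.8 FPKM with IL-4 and 11.04 FPKM without (0.79), with about 1884 reads with IL-4 and 847 without. Matk, a kinase that restrains Src family kinases, was at 7.33 FPKM with IL-4 and 3.90 FPKM without (0.76), and Cdh1, the adhesion protein E-cadherin, at 9.83 FPKM with IL-4 and 6.02 FPKM without (0.63). Havcr2, the gene of TIM-3, was at 8.18 FPKM with IL-4 and 4.95 FPKM without (0.62). P2ry6, a receptor for UDP, was at 13.9 FPKM with IL-4 and 8.80 FPKM without (0.60). Below were Folr2, a folate receptor of macrophages, at 5.83 FPKM with IL-4 and 9.09 FPKM without (-0.56), Xylt2, which starts proteoglycan sugar chains, at 5.12 FPKM with IL-4 and 8.73 FPKM without (-0.67), and Itgb5, an integrin chain, at 8.89 FPKM with IL-4 and 13.0 FPKM without (-0.50). Among the 2881 genes under 5 FPKM, 3.96% were at or above 0.5 and 1.56% at or below -0.5, and counting error weighs most there.

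Genes of ribosome biogenesis shifted in the same direction by small amounts. Of 52 genes, 48 had a log2 change above 0 and 4 below, where 56.7% of all genes were above 0. None was higher by the rule, 14 were at 0.25 or more, where 5.72% of all genes were, and none was at -0.25 or less, where 2.9% of all genes were. Their median was 0.19 at 4 h and -0.02 at 1 h, beside 0.02 and -0.02 for all genes. Rrs1, a factor of the large subunit, stood at 9.61 FPKM with IL-4 and 5.98 FPKM without (0.60), Gnl3 (nucleostemin) at 8.74 FPKM with IL-4 and 5.89 FPKM without (0.50), Nop58 at 13.8 FPKM with IL-4 and 10.4 FPKM without (0.38) and its partner in small nucleolar particles Nop56 at 24.2 FPKM with IL-4 and 18.6 FPKM without (0.36). The nucleolar proteins Ncl and Npm1 were at 60.7 and 253 FPKM with IL-4 and at 53.0 and 226 FPKM without (0.19 and 0.16).

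Medians of further lists are given beside the 0.02 of all genes. The 37 NF-kB targets had a median of -0.01 and none past the rule. Of them, 2 were at or above 0.5 and none at or below -0.5, where 1.61% and 0.523% of all genes were. Il6 stood at 6.44 FPKM with IL-4 and 5.01 FPKM without (0.31), Tnf at 6.47 FPKM with IL-4 and 7.76 FPKM without (-0.23) and Il1b at 5.20 FPKM with IL-4 and 6.29 FPKM without (-0.23). Il4 itself was at 82.0 FPKM with IL-4 and 87.4 FPKM without (-0.09), Il13 at 1.29 FPKM with IL-4 and 1.02 FPKM without (0.18), and Il5 was listed at 0 in both. Of 36 immediate early genes, Egr2, Hbegf and Myc were higher, where 0.299% of all genes were, and the median was 0.04. The 39 interferon-stimulated genes had a median of 0.03, the 34 cholesterol genes of 0.02, the 29 genes of glycolysis and hypoxia of 0.00, the 74 respiratory chain subunits of 0.02 and the 35 cell cycle genes of 0.02, with none past the rule in these lists. Among 32 cytokine receptors only Il6st was higher (median 0.05), where 0.299% of all genes were. Il2rb stood at 5.66 FPKM with IL-4 and 3.04 FPKM without (0.72) and Il7r at 8.01 FPKM with IL-4 and 11.3 FPKM without (-0.44). Il1rl1, the IL-33 receptor, stood at 72.9 FPKM with IL-4 and 67.4 FPKM without (0.11). The 30 genes of eosinophil granules and identity had a median of 0.05. None was at 0.25 or more or at -0.25 or less, where 5.72% and 2.9% of all genes were.

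At 1 h, 10 of 10501 genes were higher with IL-4 (0.0952%) and 2 were lower (0.019%). Of the 32 genes higher at 4 h, 26 had a log2 change above 0 at 1 h. The share of all genes above 0 at 1 h was not counted, so the 26 have no background to be read against. Of the 32, 8 were at 0.5 or more, where 0.533% of all genes of 1 h were, and 3 at 1 or more, namely Socs1, Ccl7 and Ccl2. The median of the 32 was 1.42 at 4 h, which the rule sets in part, and 0.25 at 1 h, beside 0.02 and -0.02 for all genes compared at 4 h. Mrc1, Gimap3, Tfec and Mgl2 were among the 6 below 0 at 1 h, with log2 changes of -0.09, -0.05, -0.03 and -0.01. The 1 h libraries held heart muscle transcripts, with Myl2 at 23.5 FPKM with IL-4 and 33.1 FPKM without, against 0.602 FPKM with IL-4 and 0.150 FPKM without at 4 h, and their part in the values of 1 h was not tested. Of the 22 heart and fibroblast transcripts listed, 4 were compared at 4 h, namely Acta2, Fn1, Pdgfrb and Vim. All 4 were above 0, where 56.7% of all genes were, from 0.01 for Vim to 0.37 for Fn1, with a median of 0.19. The heart muscle genes of the list, Myl2 among them, were under 1 FPKM in both libraries of 4 h and so were not compared.

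IL-33 at 4 h was set against the same untreated library, in a table normalised on its own, so values are given side by side only. Retnla had a log2 change of 2.20 with IL-4 and 0.65 with IL-33, and Mgl2 of 1.27 with IL-4 and 0.31 with IL-33. For Lipg the values were 1.34 with IL-4 and -0.35 with IL-33, for Chi3l3 0.79 with IL-4 and -0.21 with IL-33, and for Cxcr2 0.51 with IL-4 and 0.03 with IL-33. Arg1 had 2.35 with IL-4 and 2.22 with IL-33, Ccl7 2.23 with IL-4 and 2.19 with IL-33, and Apobec1 -0.67 in both. Pim2 stood at 1.13 with IL-4 and 4.96 with IL-33.

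The 131 small RNA genes behaved unlike the rest, with 38 higher (29.0%) and 37 lower (28.2%). Their log2 changes ran from -11.69 to 12.47 with a median of -0.27. Such transcripts are shorter than the fragments of a usual library, and their FPKM values were kept out of all counts above.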

How the data were processed

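RNA-seq values of the 2 libraries were taken from the table of IL-4 and untreated cells at 4 h, and the tables of 1 h and of IL-33 at 4 h served for side-by-side values. Per the submitters' processing notes, TopHat 1.4.1 placed the reads on mm9 and Cuffdiff 1.2.1 gave the levels, and the values the authors deposited are FPKM per transcript, each table normalised on its own. Trimming, the annotation release and the use of strand are not given in the sources used here, so that reads of overlapping genes cannot be told apart. A deposited list of log2 fold changes by the authors served to check the columns, and its values equalled those of the matching table within 0.01.

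The 28702 transcripts were summed to 22548 symbols with pandas 2.3.3. Because there was 1 library per group, no test was run. The members and the gene lists were chosen with earlier results of these data known. By the rule, the genes to name were all past a log2 change of 1 in size, well expressed genes past 0.5, up to 6 members per list (of which the text gives a part), the 12 of highest mean, 4 on either side of the rule, and Il4, Il13, Il5, Il6, Il4ra, Stat6, Il1rl1, Tnf and Il1b, with the smaller bands and the genes named from them added after the data had been seen. A few further list members were named for their role, likewise after their values had been seen.

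Reads were estimated as FPKM times the transcript length less 199 bases, in kilobases, over the worth of 1 read. That worth was found from genes with low values, of which 64.8% with IL-4 and 63.1% without lay within 0.1 of a whole read. Lengths came from GENCODE and may differ from those the authors used. Exact (Clopper-Pearson) 95% intervals of the ratio cover counting error only. Known changes without added noise were put on the untreated values to test the summing, the log2 change and the calls. The read estimates, the intervals and the promoter search were not tested in this way.

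Alternatives were other pseudocounts (0.1 and 5), other filters on level, the transcript of highest mean in place of the sum, centring on well expressed genes and the untreated library of 1 h in place of that of 4 h.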

Additional observations from a re-analysis of the deposited data

Results flagged for a closer look

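For 4 of the genes searched, the log2 change with IL-4 had opposite signs at 4 h and at 1 h, in each case beyond 0.25 in size. The search took only genes named by the rule or its added bands, with at least 5 FPKM in any IL-4 or untreated library. It was not a count over all genes compared, and the differences were not tested. Rpl26 was listed at 0 with IL-4 at 4 h and had a difference of -4.60 (4 h minus 1 h, on the log2 scale). Lars2, a mitochondrial leucyl-tRNA synthetase gene, stood at 563 FPKM with IL-4 and 717 FPKM without at 4 h, and at 624 FPKM with IL-4 and 384 FPKM without at 1 h (difference -1.05). The predicted gene 1810035I16Rik, which overlaps Ctrc, was at 5.35 FPKM with IL-4 and 8.15 FPKM without at 4 h, and at 10.8 FPKM with IL-4 and 6.74 FPKM without at 1 h (difference -1.14). H2-DMb2, which loads peptide on MHC class II, was at 5.24 FPKM with IL-4 and 3.86 FPKM without at 4 h, and at 2.34 FPKM with IL-4 and 3.26 FPKM without at 1 h (difference 0.71).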

How the results depend on the processing

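The counts of 32 higher and 1 lower gene, and of 8 and 1 well expressed genes with a log2 change of 0.5 to 1 in size, moved with several choices. A pseudocount of 0.1 FPKM gave 79 higher and 28 lower genes, and one of 5 FPKM gave 9 higher genes and 5 well expressed genes with a shift of 0.5 to 1 upward. All 32 genes stayed higher with 0.1 and 9 with 5. The transcript of highest mean gave 64 and 33 genes, with 13 and 11 of the smaller shifts, and centring on well expressed genes gave 2 lower genes and 5 upward shifts. The untreated library of 1 h as the base gave 86 and 114 genes, with 151 and 122 smaller shifts, and it turned Pisd-ps1 (-1.28), Egr2 (-0.30) and Apobec1 (0.0291). Against that base, 19 of the 32 genes stayed higher. A mean of at least 10 FPKM gave 24 and 2 smaller shifts, and one of at least 50 FPKM gave 2 and 0. A minimum of 5 FPKM in either library kept 23 of the 32. The choices made after seeing the data were the locus of highest level per symbol, which moved no count, and leaving out overlapping genes, which left 0 lower genes. The median of the alternative activation list was 0.29 with a pseudocount of 5, that of the GIMAP family 0.12 with 5 and 0.47 with 0.1, and that of the SOCS and PIM list 0.08 with 5. The cause of these moves was not tested. No paired analysis was possible because each group had 1 library. Depth limits the low genes most, and an absent call there does not show that a gene did not differ.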

Other observations

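Keratin genes of surface epithelium were present at low levels in the 4 h libraries and near 0 at 1 h. Krt14 stood at 0.745 FPKM with IL-4 and 1.62 FPKM without at 4 h and was listed at 0 in both libraries of 1 h, and Krt5 was at 0.357 FPKM with IL-4 and 1.03 FPKM without at 4 h, against 0.0506 FPKM with IL-4 and 0.0477 FPKM without at 1 h. Krt17 was at 1.19 FPKM with IL-4 and 2.10 FPKM without at 4 h. These values have no replicate and the source of the transcripts was not tested.

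Genes below 0 at low levels held several known from tissue macrophages and lipid uptake. Lrp1, a large endocytic receptor, was at 1.58 FPKM with IL-4 and 3.35 FPKM without (-0.75), Fabp4, a fatty acid carrier, at 1.77 FPKM with IL-4 and 3.53 FPKM without (-0.71), and Pdgfb, a growth factor, at 2.77 FPKM with IL-4 and 5.51 FPKM without (-0.79). Sdc1, a relative of Sdc4, was at 1.09 FPKM with IL-4 and 2.34 FPKM without (-0.68), on the other side from Sdc4. These genes were picked after their values had been seen, and 1.56% of genes under 5 FPKM were at or below -0.5.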
